A study of Teleogryllus oceanicus with 18 samples.

Results

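MITF, SMYD5 and RPC8 are the names given to 3 genes of the Pacific field cricket *Teleogryllus oceanicus* whose products were annotated, by similarity to proteins of other species, as acting in the nucleus. They were followed by identifier in body tissue of male crickets carrying larvae of the parasitoid fly *Ormia ochracea*. MITF is MSTRG.16997 (also TOG013561, microphthalmia-associated transcription factor isoform X2), SMYD5 is MSTRG.22129 (also TOG017732, SET and MYND domain-containing protein 5) and RPC8 is MSTRG.15184 (also TOG012134, DNA-directed RNA polymerase III subunit RPC8). The 3 genes are among 32729 in the deposited counts, all 3 passed the filter on low counts with 23748 genes in total, and all 3 belong to a list of 53 genes. That list is a subset of the genes the study annotated as immune, tabulated with their expression changes in these same libraries. The study cites the list where it counts immune genes that changed significantly in either population or both, and does not state outright how the subset was picked. Neither the list's changes nor the presence of the 3 genes on it is therefore independent evidence. The rest of the immune genes were not analysed here as a group.

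MITF belongs to the basic helix-loop-helix leucine zipper transcription factors. In vertebrates it switches on pigment genes of melanocytes, tyrosinase among them, and in *Drosophila* its single relative acts on lysosomal and proton pump genes. Insects make defensive melanin with a different set of enzymes, the phenoloxidases. SMYD5 belongs to the SET and MYND family of lysine methyltransferases, and in mouse macrophages it adds a repressive histone mark at inflammatory target genes of Toll-like receptor 4. RPC8 is a subunit of the stalk of RNA polymerase III, the enzyme that transcribes transfer RNAs and other short structural RNAs, and in human cells that polymerase can also copy foreign DNA into RNA that triggers interferon signalling. These roles come from other animals and were not measured in the cricket.

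Each of 18 libraries held polyA-selected RNA of a pool of 2 sexually mature adult males, with 3 libraries in each of 6 groups. Infested males had received 2 first-stage larvae on a probe and were collected 4 or 7 days later, whereas controls were handled alike without larvae. A Mangaia pool was made of 2 normal-wing males and a Kauai pool of 1 flatwing with 1 normal-wing male, so population and the wing morphs of the pool cannot be told apart. The larvae came from flies caught in California. Heads, digestive tracts, pronota, wings and legs were left out, larvae were dissected from the abdomen, and the remaining body tissue, labelled abdominal, was extracted. That label could not be checked against markers, because the gene names at hand cover only the immune list, which has no marker of a tissue. In bulk RNA of this kind, fewer cells of a type and less RNA per cell cannot be told apart. Libraries were numbered 1 to 3 within a group.

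The 18 libraries held between 6266925 and 8023588 read pairs in genes (median 7286132), equal to 68.5% to 73.2% of all their pairs. Mangaia day 7 library 2 had the lowest mean correlation with the other libraries of its group, 0.902 against 0.923 to 0.964 in the other 17 libraries, in a group whose other libraries had 0.923 and 0.933, and it had the largest unmapped share (11.6%). The TMM scaling factors were 0.846 to 0.927 in Kauai controls and 1.025 to 1.151 in Kauai day 7 libraries, so scaling moved with the day 7 contrast of Kauai.

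Levels are given in CPM (read pairs scaled to a common library size) after TMM scaling, a unit that is not corrected for transcript length, so levels of different genes are not compared. MITF averaged 19.2 CPM over the 18 libraries and drew 83 to 199 read pairs per library. SMYD5 averaged 13.5 CPM with 60 to 185 read pairs. RPC8 averaged 4.29 CPM with 12 to 51 read pairs, close to the median of all tested genes (4.98 CPM), so counting error weighed most on it. Fitted biological variation between libraries of a group was 16.1% for MITF, 18.9% for SMYD5 and 19.9% for RPC8, against trends of 31.5%, 32.0% and 33.5% for genes of their abundance. All 3 genes therefore varied less between pools than the trend. Their counts on both strands added up to the unstranded count in 18 of 18 libraries, which was so for 43.7% of tested genes, and no pairs of these genes were set aside for overlapping a gene on the opposite strand.

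**Figure D1:**
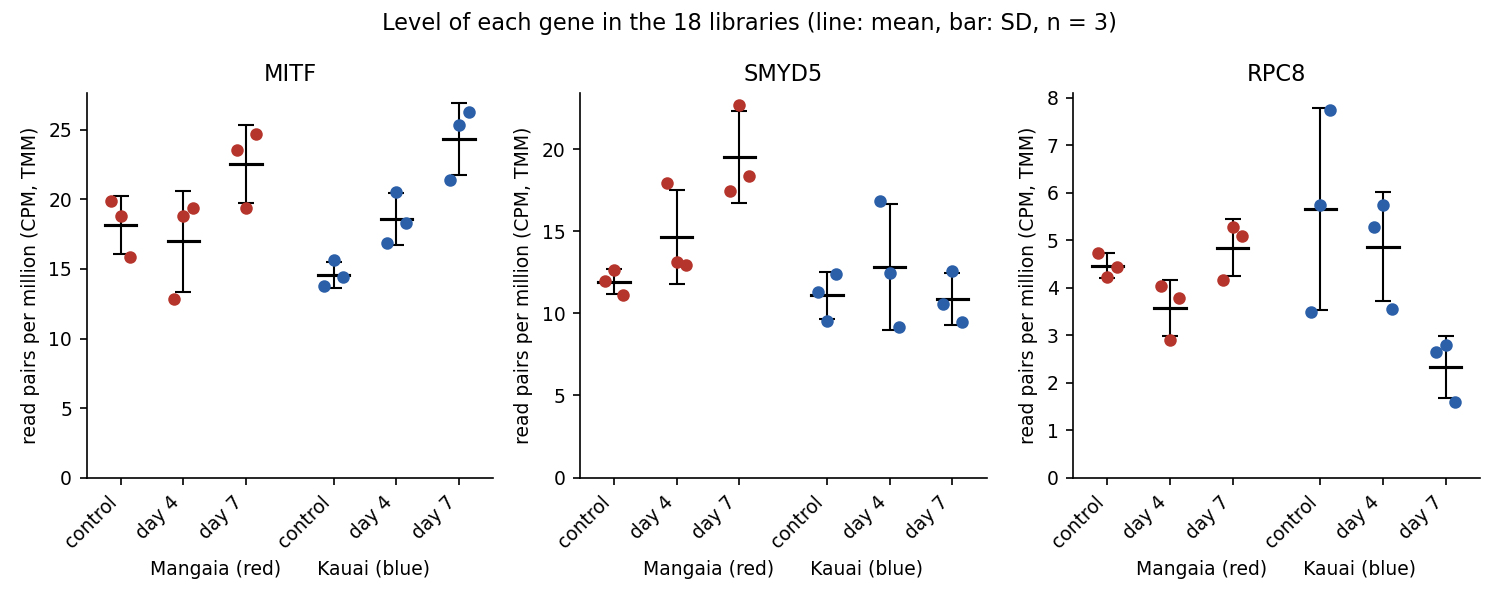
Level of MITF, SMYD5 and RPC8 in CPM (vertical axes from 0) in each library of the 6 groups; points are libraries, lines are group means and bars are SD (n = 3). MITF was highest in both day 7 groups, SMYD5 was highest in Mangaia at day 7, and RPC8 was lowest in Kauai at day 7.

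The first question was whether infestation changed each gene within a population, and when. At day 7, MITF rose and RPC8 fell in Kauai, and SMYD5 rose in Mangaia. None of the 3 genes passed the test at day 4 in either population. These 3 day 7 calls were modest in size, from 1.64-fold higher to 0.414-fold, in comparisons where a large share of all genes passed: 51.3% in Kauai (25.1% higher and 26.2% lower) and 31.4% in Mangaia (12.6% higher and 18.8% lower). A call in Kauai at day 7 was thus shared with about as many genes as not.

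MITF, the transcription factor, was read at 13.8, 15.6 and 14.4 CPM in the Kauai controls (libraries 1 to 3). The Kauai day 4 libraries had 16.9, 20.6 and 18.3 CPM. The Kauai day 7 libraries had 21.4, 25.3 and 26.3 CPM. These 3 groups did not overlap, and every library lay above each library of the earlier stage. The group means were 14.6 ± 0.932 CPM in controls and 24.3 ± 2.59 CPM at day 7 (SD, n = 3). Their log2 fold change was 0.74 (SE 0.184, 95% confidence interval 0.34 to 1.13), a 1.67-fold rise (1.27 to 2.18) with an adjusted p of 0.00430 in edgeR's quasi-likelihood test. Day 7 groups lay wholly above the controls for 30.7% of all tested genes in Kauai, day 4 groups above controls for 13.3% and day 7 above day 4 for 19.0%. The step at day 4 (0.35, interval -0.04 to 0.74, adjusted p = 0.316 in edgeR) and that from day 4 to day 7 (0.39, adjusted p = 0.126 in edgeR) did not pass on their own, where 2.07% and 24.7% of all genes were called.

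In Mangaia, MITF was read at 19.9, 18.8 and 15.9 CPM in controls, at 12.8, 18.8 and 19.4 CPM at day 4 and at 23.6, 19.4 and 24.7 CPM at day 7. Day 7 library 2, at 19.4 CPM, fell below the highest control, so the groups overlapped, and the low value at day 4 was that of library 1. The log2 fold change was 0.31 at day 7 (interval -0.08 to 0.70, adjusted p = 0.201 in edgeR) and -0.10 at day 4 (interval -0.49 to 0.29, adjusted p = 0.890 in edgeR). The Mangaia interval at day 7 ended just below the value estimated for Kauai. The difference between the populations' responses was 0.43 (interval -0.12 to 0.98, adjusted p = 0.358 in edgeR), so a population difference in the MITF response was not shown, and none of the 3 members passed from day 4 to day 7 in Mangaia, where 26.6% of genes did.

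SMYD5, the methyltransferase, was read at 12.0, 12.7 and 11.1 CPM in Mangaia controls. At day 4 in Mangaia it had 17.96, 13.1 and 12.9 CPM. At day 7 it had 17.5, 22.7 and 18.4 CPM. Both infested groups lay wholly above the controls, with library 1 setting the day 4 mean and library 2 the highest value of day 7. Such a separation upward was seen for 12.0% of all genes at day 4 and 21.7% at day 7. The mean went from 11.9 ± 0.766 CPM in controls to 19.5 ± 2.81 CPM at day 7 (SD, n = 3), a log2 fold change of 0.71 (SE 0.224, interval 0.23 to 1.19) or 1.64-fold (1.18 to 2.28), with an adjusted p of 0.0269 in edgeR. The day 4 value was 0.30 (interval -0.18 to 0.78, adjusted p = 0.600 in edgeR, with 3.11% of all genes called there).

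The SMYD5 call at day 7 was the least settled of the 3. Without Mangaia day 7 library 2, the library least like its group, the log2 fold change was 0.61 with an adjusted p of 0.0751 in edgeR. It was kept in 17 of 27 alternative analyses, with values of 0.57 to 0.85, and it was lost with only the libraries compared in the fit (adjusted p = 0.0508 in edgeR).

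In Kauai, SMYD5 was read at 11.3, 9.56 and 12.4 CPM in controls, at 16.9, 12.5 and 9.17 CPM at day 4 and at 10.5, 12.6 and 9.50 CPM at day 7. All 3 groups overlapped, and the day 4 libraries spread most, from below the lowest control to above the highest. The day 7 log2 fold change was -0.03 (SE 0.227, interval -0.51 to 0.45, adjusted p = 0.929 in edgeR), or 0.981-fold with an interval from 0.702 to 1.37. A change in Kauai as large as the Mangaia estimate lay outside that interval, although smaller changes in either direction remain possible.

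RPC8, the polymerase subunit, was read at 3.49, 5.74 and 7.73 CPM in Kauai controls, from 21, 36 and 51 read pairs. The Kauai day 4 libraries had 5.28, 5.74 and 3.56 CPM, from 36, 41 and 26 read pairs. The Kauai day 7 libraries had 2.64, 2.78 and 1.58 CPM, from 19, 21 and 12 read pairs. In TMM-scaled CPM every day 7 library was below every control and every day 4 library. The separation from controls depends on that scaling. Control library 1 had 21 of 7124410 read pairs in genes and day 7 library 1 had 19 of 6266925, a larger share. The controls themselves spread more than any other group of this gene (5.65 ± 2.12 CPM, SD, n = 3). At 2.34 ± 0.655 CPM, day 7 was lower than controls by a log2 fold change of -1.27 (SE 0.310, interval -1.93 to -0.62), or 0.414-fold (0.262 to 0.653), with an adjusted p of 0.00361 in edgeR. Groups separated downward in this way for 29.7% of all genes against controls and 24.0% against day 4.

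RPC8 in Kauai was called lower from day 4 to day 7 but not from controls to day 4, and the day 4 interval allows part of the fall by then. Day 7 against day 4 in Kauai gave -1.05 (SE 0.310, interval -1.71 to -0.39, adjusted p = 0.0256 in edgeR), in a comparison where 15.5% of all genes were called lower, and the value at day 4 against controls was -0.22 (interval -0.85 to 0.40, adjusted p = 0.708 in edgeR). The call between the infested stages was lost with only the 6 libraries compared in the fit (-1.09, adjusted p = 0.0790 in edgeR) and without Kauai day 4 library 1 (-1.08, adjusted p = 0.0518), day 4 library 2 (-0.91, adjusted p = 0.101) or day 7 library 3 (-0.95, adjusted p = 0.0539), each in edgeR.

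In Mangaia, RPC8 was read at 4.74, 4.22 and 4.43 CPM in controls, at 4.03, 2.90 and 3.77 CPM at day 4 and at 4.16, 5.28 and 5.08 CPM at day 7. In TMM-scaled CPM day 4 lay wholly below the controls and also below day 7, whereas day 7 overlapped the controls. Both separations depend on that scaling. Day 4 library 1 had 33 of 7639961 read pairs in genes. Smaller shares were found in control library 2 (31 of 7578004) and day 7 library 1 (30 of 8023588). Neither day 4 (-0.32, interval -0.96 to 0.32, adjusted p = 0.708 in edgeR) nor day 7 (0.12, interval -0.51 to 0.74, adjusted p = 0.785 in edgeR) passed the test. The separation at day 4 was of a kind seen downward for 12.4% of all genes, and that between day 7 and day 4 upward for 19.9%.

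**Figure D2:**
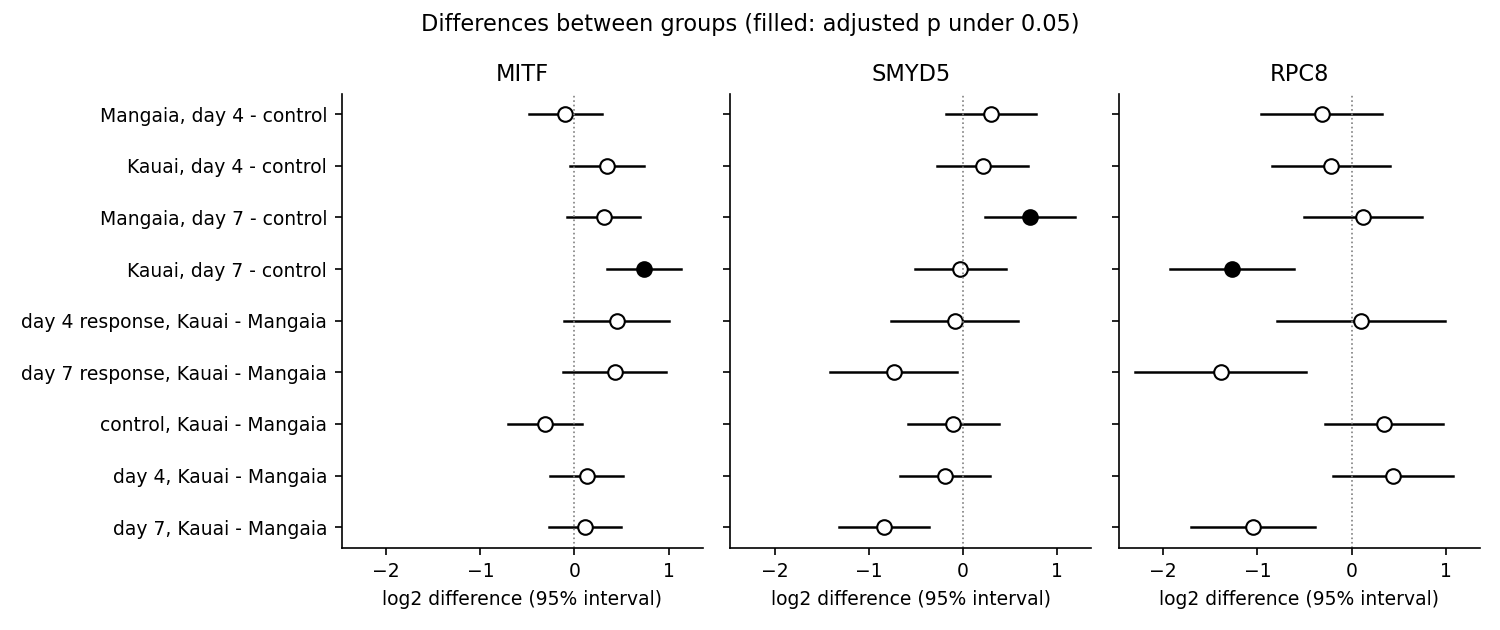
Log2 fold changes of the 3 genes with 95% confidence intervals from edgeR's quasi-likelihood fit, for the responses to infestation at day 4 and day 7, the differences between the populations' responses, and the comparisons of populations within a stage; filled points passed at an adjusted p under 0.05. Those that passed were MITF (0.74) and RPC8 (-1.27) in Kauai at day 7 and SMYD5 (0.71) in Mangaia at day 7.

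The second question was whether the populations differed, in controls or in their response. Uninfested Kauai and Mangaia crickets were not told apart by any of the 3 genes: the log2 difference, Kauai minus Mangaia, was -0.32 for MITF (adjusted p = 0.441), -0.10 for SMYD5 (adjusted p = 0.857) and 0.34 for RPC8 (adjusted p = 0.605) in edgeR, and 0.0421% of all genes were called. The MITF control groups nevertheless did not overlap, with all Kauai controls lower, as was so for 13.2% of genes. At day 4 no member differed either, with 0.152% of genes called.

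At day 7, SMYD5 and RPC8 were lower in all 3 Kauai libraries than in all 3 Mangaia libraries, a separation found downward for 11.8% of all genes. The differences were -0.84 (SE 0.225, interval -1.32 to -0.36) for SMYD5 and -1.05 (SE 0.309, interval -1.70 to -0.39) for RPC8. Both fell short of the threshold after adjustment over all genes (adjusted p = 0.0507 and 0.0658 in edgeR), where 3.53% of genes were called. Both passed with edgeR's likelihood ratio test (adjusted p = 0.0170 and 0.0259) and DESeq2 (adjusted p = 0.00991 and 0.0350). Those tests also called more of the 23748 genes there, 2268 and 2610 against 839. Of 9 alternatives other than leaving out a library, SMYD5 passed in 4 and RPC8 in 2. MITF differed by 0.11 (interval -0.28 to 0.50, adjusted p = 0.751 in edgeR).

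The interaction at day 7, the response of Kauai minus that of Mangaia, was -1.39 for RPC8 (SE 0.428, interval -2.30 to -0.48, adjusted p = 0.0856 in edgeR) and -0.74 for SMYD5 (SE 0.319, interval -1.42 to -0.06, adjusted p = 0.196 in edgeR), with 2.43% of genes called. That RPC8 passed in Kauai alone, and SMYD5 in Mangaia alone, was therefore not shown to be a difference between populations by that test. The RPC8 interaction passed with the likelihood ratio test (adjusted p = 0.0374), with DESeq2 (adjusted p = 0.0295) and in edgeR's quasi-likelihood test without Kauai control library 1 (-1.70, adjusted p = 0.0381), the control with the lowest RPC8 level. The likelihood ratio test and DESeq2 called 1711 and 2131 genes in that contrast, against 576. The RPC8 interaction passed in 2 of 9 alternatives other than leaving out a library, and in 1 of 18 leave-one-out fits. At day 4 the interactions were 0.45 for MITF, -0.09 for SMYD5 and 0.10 for RPC8, none of them called. No gene of the 23748 was called in that contrast by edgeR's quasi-likelihood test, although 2320 had an unadjusted p under 0.05, and the likelihood ratio test called 113, DESeq2 91 and limma voom 0.

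Ordered by group means, MITF ran from Kauai day 7 and Mangaia day 7 at the top, through Kauai day 4, Mangaia control and Mangaia day 4, to Kauai control. SMYD5 ran from Mangaia day 7 through Mangaia day 4, Kauai day 4, Mangaia control and Kauai control to Kauai day 7. In both orders every group overlapped its neighbour. RPC8 ran from Kauai control through Kauai day 4, Mangaia day 7, Mangaia control and Mangaia day 4 to Kauai day 7, and there Mangaia day 4 overlapped neither of its neighbours while all other neighbours overlapped. The group with the highest RPC8 mean and the group with the lowest were thus the controls and the day 7 crickets of the same population.

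The day 7 calls were compared across analyses, since Kauai scaling factors moved with the stage. MITF in Kauai passed in all 27 alternatives, with log2 fold changes of 0.56 to 1.04, and RPC8 in Kauai passed in all 27, with -1.54 to -0.97. The median of all genes in that contrast was 0.07 with TMM, -0.10 with RLE factors and 0.37 with library size alone. Relative to that median MITF spanned a narrower range, 0.62 to 0.75, whereas RPC8 spanned -1.61 to -1.06 and SMYD5 in Mangaia 0.58 to 0.83, about as wide as before. Among the fits that lost the SMYD5 call were 6 that left out a library of another group, where the log2 fold change was 0.57. In those 6 fits the median of all genes was -0.153 to -0.147. Relative to it SMYD5 had 0.716 to 0.724, beside 0.717 in the reported fit.

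**Figure D3:**
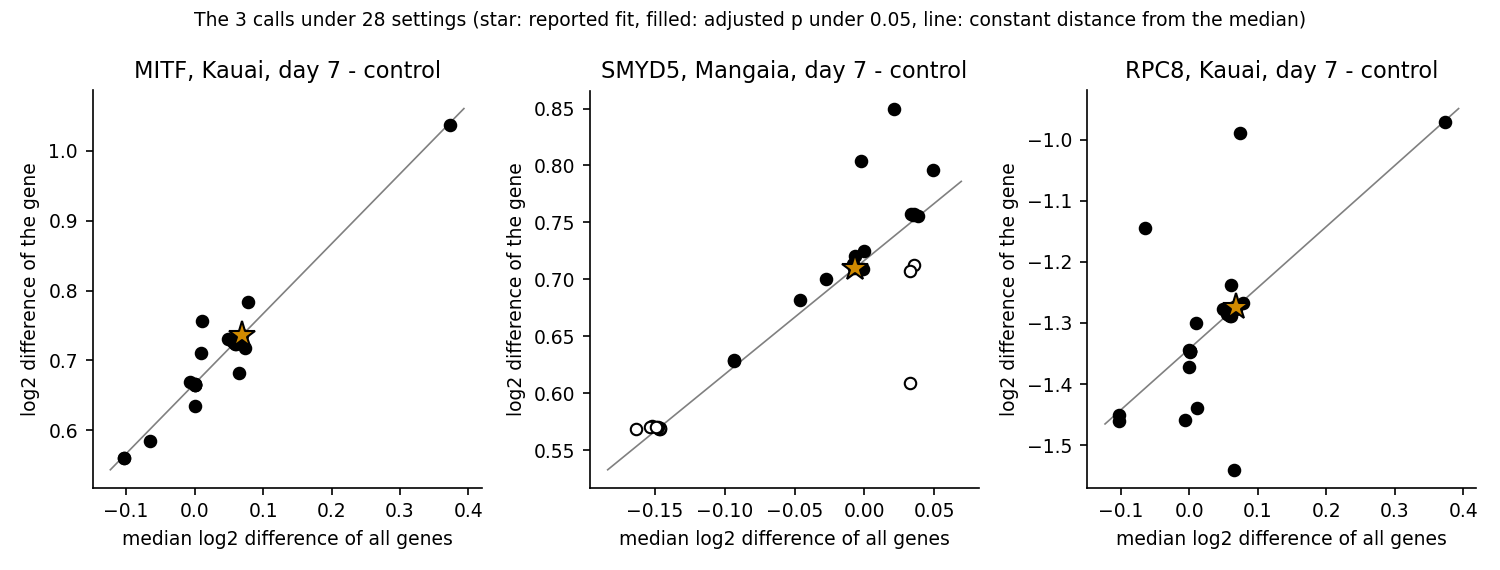
Log2 fold change of the 3 day 7 calls (vertical axes; MITF in Kauai, SMYD5 in Mangaia, RPC8 in Kauai) against the median over all genes of the same contrast (horizontal axes, log2) in the reported analysis (star) and in 27 alternatives; points on the line are as far from the median as the reported value, filled points passed at an adjusted p under 0.05 and open points did not. MITF stayed between 0.56 and 1.04 and RPC8 between -1.54 and -0.97, all filled, and 17 of the 27 SMYD5 points are filled.

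Ratios of 2 genes within a library do not depend on how libraries are scaled to each other. A count of 0.5 was added to each gene, and log2 ratios at day 7 were set against controls by exact two-sided permutation of stage labels within populations, with p adjusted over the 3 ratios. For SMYD5 over RPC8, Mangaia controls had 1.33, 1.57 and 1.32 and Mangaia day 7 libraries had 2.05, 2.09 and 1.84. Kauai controls had 1.67, 0.729 and 0.680 and Kauai day 7 libraries had 1.97, 2.15 and 2.54. Day 7 lay wholly above controls in each population. The ratio rose by 0.59 in Mangaia and 1.19 in Kauai, a mean of 0.89 with an exact p of 0.005, the smallest that design can give, and an adjusted p of 0.015. At day 7 the log2 fold changes of SMYD5 and RPC8 were 0.71 and 0.12 in Mangaia and -0.03 and -1.27 in Kauai. The p thus does not show that either gene changed in both populations. The ratios use genes called in these same libraries and are no independent support. Within 1 population the smallest exact p is 0.1, so the populations could not pass alone.

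For MITF over RPC8 the Kauai ratios went from 1.96, 1.43 and 0.891 in controls to 2.99, 3.15 and 4.00 at day 7, without overlap. In Mangaia they averaged 2.00 ± 0.161 in controls and 2.21 ± 0.313 at day 7 (SD, n = 3), with overlap. The ratio rose by 1.95 in Kauai and by 0.20 in Mangaia (exact permutation p = 0.4 in Mangaia alone). The mean rise of 1.08 passed by exact permutation (p = 0.02, adjusted p = 0.03), which does not show a change in both populations. That pass was lost without Mangaia control library 3 (adjusted p = 0.0525, exact permutation) or Mangaia day 7 library 1 (adjusted p = 0.06, exact permutation). MITF over SMYD5 gave -0.39 in Mangaia and 0.76 in Kauai, and the mean of 0.18 did not pass (exact permutation p = 0.485).

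**Figure D4:**
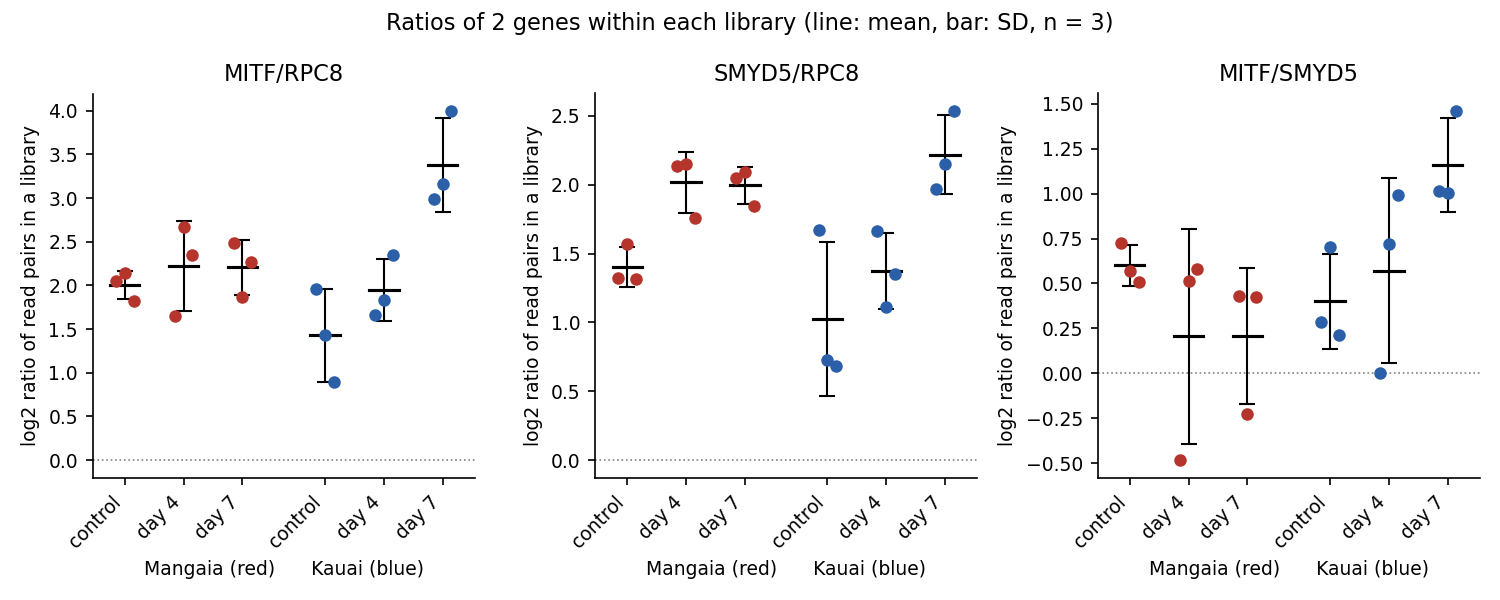
Log2 ratio of read pairs of 2 genes within each library for MITF over RPC8, SMYD5 over RPC8 and MITF over SMYD5; points are libraries, lines are group means and bars are SD (n = 3). SMYD5 over RPC8 is higher at day 7 in both populations, and MITF over SMYD5 is lower at day 7 in Mangaia and higher in Kauai.

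Among the 53 genes of this subset ranked by the size of the day 7 change, MITF was 46th, SMYD5 53rd and RPC8 33rd in Kauai, and MITF was 46th, SMYD5 35th and RPC8 51st in Mangaia. The median size over the list was 1.503 in Kauai and 1.14 in Mangaia on the log2 scale. Of the other 50 genes, 35 were called higher and 8 lower in Kauai at day 7 (median 1.24), where 25.1% of all genes tested were called higher and 26.2% lower (median 0.07). In Mangaia 20 were higher and 6 lower (median 0.65), where 12.6% of all genes were called higher and 18.8% lower (median -0.01). As the picking of the subset may have used these changes, nothing particular to immune genes is read from those counts. In size of the day 7 difference between populations the order was another, with RPC8 9th, SMYD5 13th and MITF 48th of 53.

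Of other listed proteins that act in the nucleus, 3 are described. The modifier SUMO3 (TOG006749), a small protein attached to other proteins, rose in both populations at day 7 (0.62 in Mangaia, adjusted p = 0.0194, and 1.19 in Kauai, adjusted p = 0.000295, edgeR). One of a pair of genes named Lola, a *Drosophila* transcription factor of axon guidance (MSTRG.2317), fell in both (-1.15, adjusted p = 0.0230, and -1.38, adjusted p = 0.00510, edgeR). The other Lola (TOG018967) had 1.27 in Mangaia (adjusted p = 0.0574) and 0.45 in Kauai (adjusted p = 0.383) in edgeR. It averaged 0.462 CPM in Mangaia controls and 1.14 CPM at day 7, so its 1.27 rests on few read pairs. None of these 3 genes passed at day 4 in either population, and none passed the interaction at either day.

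The phenoloxidases of the list, and STING, a gene named for its part in interferon signalling, were read because of the roles MITF and polymerase III have in vertebrates. No link of these genes to MITF or RPC8 was tested. Of 7 phenoloxidase genes, which make melanin in insects, 6 were called higher and 1 lower in Kauai at day 7 (median 1.503, from -4.04 to 4.07), and 4 higher and none lower in Mangaia (median 1.24), beside 25.1% and 12.6% of all genes called higher. The 1 called lower (MSTRG.11188) averaged 1.01 CPM in Kauai controls and 0.0463 CPM at day 7, so its -4.04 rests on very few read pairs. At day 4, 4 of 7 were called higher in Kauai and 2 of 7 in Mangaia, beside 2.07% and 3.11% of all genes called in either direction. MITF itself did not pass there. The picking of the subset may have used these changes, so nothing particular to phenoloxidases, and nothing about MITF, is read from these counts. STING (MSTRG.18304, stimulator of interferon genes) rose in Kauai at day 7 (0.95, adjusted p = 0.0113) and had 0.17 in Mangaia (adjusted p = 0.665) in edgeR, with an interaction of 0.78 (adjusted p = 0.269 in edgeR) that did not pass.

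The genes of the list whose levels ran most like each member over the 18 libraries were found by Pearson correlation of log2 CPM. The libraries share depth, scaling and the stage of infestation, and the genes were picked for their likeness, so these values and their changes are descriptions with no test. For MITF they were phenoloxidase 2-like (MSTRG.10990, r = 0.809), eiger (MSTRG.17457, r = 0.802), the *Drosophila* tumour necrosis factor ligand, and the phenoloxidase PPO (MSTRG.17307, r = 0.774). Their log2 fold changes at day 7 were 3.29, 1.37 and 2.502 in Kauai and 1.96, 1.44 and 1.96 in Mangaia, beside 0.74 and 0.31 for MITF. Spearman correlation picked the same 3 genes in another order.

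SMYD5 ran most like phenoloxidase-activating factor 2 (MSTRG.18615, r = 0.590), a serine protease homologue of the melanin cascade, then ADP-ribosylation factor 1 (MSTRG.21064, r = 0.547), a GTPase of vesicle traffic, and TLR4 interactor with leucine rich repeats (MSTRG.872, r = 0.535). At day 7 their log2 fold changes were 0.73, 0.52 and 1.54 in Mangaia and 0.41, 0.58 and 3.89 in Kauai. MSTRG.872 averaged 0.0554 CPM in Kauai controls and 1.03 CPM at day 7, and 0.596 and 1.79 CPM in Mangaia, so its changes rest on very few read pairs. Spearman correlation kept MSTRG.872 and MSTRG.21064 and put a phenoloxidase (MSTRG.10136) in place of phenoloxidase-activating factor 2.

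RPC8 ran most like adenosine deaminase (MSTRG.279, r = 0.558), which breaks down the signalling nucleoside adenosine, then cytochrome b5 (MSTRG.23133, r = 0.539), an electron carrier, and the Lola gene MSTRG.2317 (r = 0.466). At day 7 their log2 fold changes were -5.43, -4.18 and -1.38 in Kauai and -0.88, -2.20 and -1.15 in Mangaia. MSTRG.279 averaged 2.65 CPM in Kauai controls and 0.044 CPM at day 7, so its -5.43 rests on very few read pairs at day 7. Its level in Mangaia was 0.275 CPM at day 7, so its -0.88 rests on very few read pairs too. Cytochrome b5 averaged 0.621 CPM in Kauai and 1.09 CPM in Mangaia at day 7, so few read pairs stand behind its day 7 levels. Spearman correlation put MSTRG.6375, a kinase-binding protein of the interleukin-1 receptor pathway by its name, in place of Lola. The coefficients of listed genes were thus lower for SMYD5 and RPC8 than for MITF.

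Beyond the list, and among genes averaging 10 CPM or more, the closest to RPC8 was MSTRG.21202, with r = 0.913, also the closest by Spearman correlation (0.963). Its mean level was 195 CPM in Mangaia controls, 158 at day 4 and 217 at day 7, and 224, 226 and 126 CPM in the same stages of Kauai. Its log2 fold change at day 7 was -0.83 in Kauai and 0.15 in Mangaia, a pattern for which it was picked. The closest to MITF was MSTRG.10082 (r = 0.908), with 1.03 in Kauai and 0.59 in Mangaia at day 7, and the closest to SMYD5 was MSTRG.2435 (r = 0.878), but Spearman correlation picked other genes for both. No name was at hand for these genes.

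The members did not run together. Over the 18 libraries Pearson's r was 0.03 between MITF and SMYD5, -0.46 between MITF and RPC8 and 0.37 between SMYD5 and RPC8.

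**Figure D5:**
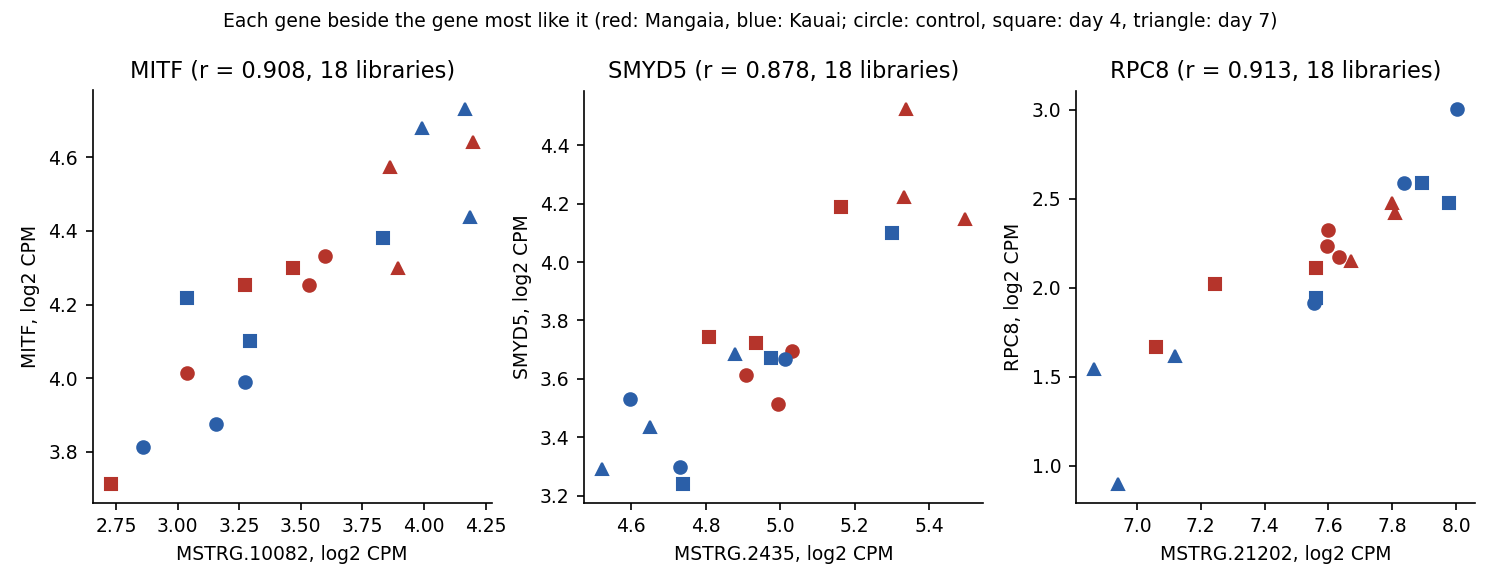
Log2 CPM of each member (vertical axes) against log2 CPM of the gene most like it among all genes averaging 10 CPM or more (horizontal axes); each point is 1 of 18 libraries, red for Mangaia and blue for Kauai, with circles for controls, squares for day 4 and triangles for day 7. RPC8 was lowest in the Kauai day 7 libraries. MSTRG.21202 (r = 0.913) was low in the same libraries, with 1 Mangaia day 4 library lying among them. MITF and MSTRG.10082 (r = 0.908) were both high in day 7 libraries.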

How the data were processed

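RNA of body tissue from 18 pools of *T. oceanicus* males was sequenced in 6 groups of 3. The authors trimmed reads with Trimmomatic 0.33, aligned them with STAR 2.5.3a and StringTie 1.3.4d, and deposited raw counts of read pairs per gene. The unstranded counts were used, and pairs that were unmapped, multimapped, in no gene or ambiguous stayed out of library sizes. Work was done in R 4.3.3. A gene was tested if 2 or more libraries reached 1 CPM. TMM factors were computed, and 1 quasi-likelihood model of the 6 groups fitted with edgeR 4.0.16. Its 11 contrasts were adjusted by Benjamini-Hochberg over 23748 genes, with a threshold of 0.05. On simulated data, recovery of known changes was measured only for Kauai day 7 against controls. The direction of those changes was also checked in the day 7 interaction, and the other contrasts were not simulated. The alternatives tried were DESeq2 1.42.0, voom of limma 3.58.1, the likelihood ratio test of edgeR, RLE factors, library size alone, no filter, only the libraries compared, the replicate block, summed stranded columns and leaving out each library. Log2 CPM used a prior count of 2. Likeness named, for each member, the 3 nearest genes of the 53-gene immune subset and the nearest gene overall. Pools are of separate crickets, so p-values measure the spread between pools. The members and lists were chosen with earlier results of these data known. Names rest on the study's protein similarity matches, and genome sequence was not used here. One result on that subset is not reported here.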

Additional observations from a re-analysis of the deposited data

Results flagged for a closer look

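The log2 ratio of MITF to SMYD5 moved in opposite directions in the populations at day 7. In Mangaia it was 0.727, 0.567 and 0.508 in controls and 0.431, -0.227 and 0.424 at day 7. In Kauai it was 0.286, 0.703 and 0.211 in controls and 1.01, 1.00 and 1.46 at day 7. Every day 7 library was below the controls in Mangaia and above them in Kauai. The ratio was flagged for that separation, which is therefore no added evidence, and its frequency among other gene pairs was not counted. In Mangaia the separation was narrow, 0.508 against 0.431. The lowest value there, -0.227, was that of day 7 library 2, the library least like its group. The response of Kauai minus that of Mangaia was 1.15, and that difference was not tested. It was 1.75 for MITF over RPC8 and 0.60 for SMYD5 over RPC8. Leaving out 1 library at a time gave 0.93 to 1.302 for MITF over SMYD5.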

How the results depend on the processing

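Members had 12 to 199 read pairs per library, with 3 pools per group. An uncalled value does not exclude changes inside its interval. Values are log2 differences, and no cause was tested.

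The SMYD5 response of Mangaia at day 7 was lost with only the libraries compared (0.71) and in 9 of 18 leave-one-out fits (range 0.57 to 0.85, largest adjusted p = 0.143 in edgeR, without Mangaia control library 1). The RPC8 step from day 4 to day 7 in Kauai was lost with only the libraries compared (-1.09) and ranged from -1.35 to -0.91 when 1 library was left out. The RPC8 interaction at day 7 passed with the likelihood ratio test (-1.40) and DESeq2 (-1.49) and without Kauai control library 1, range -1.70 to -1.12. SMYD5 between populations at day 7 passed with the likelihood ratio test (-0.84), DESeq2 (-0.85), limma voom (-0.84) and RLE factors (-0.84), and without Kauai control library 3 (-0.87), Kauai day 4 library 2 (-0.87) or library 3 (-0.81), range -0.97 to -0.72. RPC8 there passed with the likelihood ratio test and DESeq2 (-1.05 each) and without Kauai control library 1 or 3 (-1.08 each), range -1.19 to -0.81. The MITF to RPC8 ratio ranged from 0.92 to 1.21.

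Signs turned only in uncalled values. The RPC8 interaction at day 4 became -0.028 with DESeq2 and -0.022 with RLE factors. With library size alone RPC8 in Kauai at day 4 became 0.011, SMYD5 in Kauai at day 7 0.28 and the SMYD5 interaction at day 4 0.082. Leaving out 1 library gave -0.23 to 0.038 for MITF in Mangaia at day 4, -0.012 to 0.25 for MITF between populations at day 4, -0.020 to 0.45 for SMYD5 in Kauai at day 4, -0.19 to 0.053 for SMYD5 in Kauai at day 7, -0.30 to 0.16 for the SMYD5 interaction at day 4, -0.43 to 0.031 for SMYD5 between populations at day 4, -0.47 to 0.080 for RPC8 in Kauai at day 4, -0.025 to 0.28 for RPC8 in Mangaia at day 7 and -0.18 to 0.37 for the RPC8 interaction at day 4.

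Replicate numbers did not pair the libraries: deviations of same-numbered libraries correlated at -0.310 to 0.263, with 6 of 18 over 0.1. A replicate block changed no call of a member, with 0.73 for MITF and -1.27 for RPC8 in Kauai at day 7 and 0.71 for SMYD5 in Mangaia (adjusted p = 0.00766, 0.00801 and 0.0350, edgeR), while genes called in the day 7 interaction went from 576 to 0 and between populations at day 7 from 839 to 134.

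Counts of called genes moved with the tool and with single libraries. Leaving out 1 gave, for Mangaia and then Kauai, 218 to 847 and 106 to 759 genes at day 4, 4309 to 7930 and 9487 to 12504 at day 7, and 3811 to 6699 and 1809 to 7047 between these days. It gave 0 to 939 in the day 7 interaction and, between populations, 0 to 20 in controls, 0 to 224 at day 4 and 18 to 1278 at day 7. The likelihood ratio test and DESeq2 called 1318 and 1452 genes in Mangaia at day 4 against 738, 1466 and 1496 in Kauai at day 4 against 491, 1711 and 2131 in the day 7 interaction, 513 and 656 between controls against 10, 505 and 504 between populations at day 4 against 36, and 2268 and 2610 at day 7. With only the libraries compared, Mangaia had 3327 at day 7 against 7454 and 1384 from day 4 to day 7 against 6308, Kauai 2760 there against 5864, with 415 between controls, and 0 between populations at either day. Library size alone called 2235 in Kauai at day 4, 1947 in the day 7 interaction (93.4% higher, against 51.0%), 374 between controls and 0 between populations at day 4, with 61.6% of Kauai day 7 calls higher against 48.9%. Limma voom called 280 and the block 279 in Kauai at day 4, no filter 306 in the day 7 interaction, and stranded sums 5 between controls.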
